A study of Mus musculus with 32 samples.

Results

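Myelin is a stack of membrane that an oligodendrocyte wraps around an axon, and its structure rests on a small set of abundant proteins. The 9 genes Mbp, Mog, Mag, Mobp, Cnp, Mal, Opalin, Ermn and Cldn11 encode such proteins, and they were chosen by name. All 9 were measured, each by 1 probe, among 19505 genes tested. RNA came from male wild-type C57BL/6J mice aged 6 to 12 weeks at the start. Arrays were made from spinal cord and from cerebrum, in each case from controls and from mice at 1, 3 and 7 days after photothrombosis of that tissue, with 4 arrays in each of 8 groups. In photothrombosis, light is used to clot vessels that carry a photosensitive dye. The labels give no surgery for the controls, no distance of the sampled tissue from the lesion, and no statement that each array is a separate animal, so a p-value here reflects how far these samples spread, which may be technical.

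Oligodendrocytes of the central nervous system switch these genes on together as they mature, and white matter is rich in them. The protein of Mbp holds the cytoplasmic faces of the membrane together, and Mobp encodes a small basic protein of the same compact myelin. Mog and Mag encode immunoglobulin-like proteins, on the outermost surface of the sheath and on the surface that faces the axon. The Cnp product, a cyclic nucleotide phosphodiesterase, keeps cytoplasmic channels open inside the sheath. Mal encodes a proteolipid that takes part in sorting membrane to myelin, Cldn11 the claudin of tight junction strands between the layers, Ermn the actin-binding protein ermin of late oligodendrocytes, and Opalin a glycoprotein of oligodendrocyte membranes. Mbp, Mag, Cnp and Mal are also expressed by the Schwann cells that myelinate peripheral nerve.

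All levels are log2 values that the authors centred on a median of 0 for each probe, so they compare arrays and not genes. Arrays of controls and day 1 share 1 centring. Arrays of day 3 and of day 7 were each centred with the 8 controls, and their offset was rebuilt from that fact. For Mal and Opalin the offset was fixed at both days, and for Cnp at day 7. For the other members it was known only within a range. Both middle values of their joint centring came from injured arrays, and these lay inside the wider gap between control cord and control cerebrum. The half-width of that range ran from 0.33 for Cldn11 at day 7 to 0.85 for Ermn at day 7. A change from control at day 3 or day 7 had to exceed this half-width plus an allowance of 0.135 or 0.147 for other differences between the centrings. Differences between the tissues at a given day are free of the offset. A gene was called higher or lower when its Benjamini-Hochberg adjusted p in limma, over all 19505 genes, was under 0.05.

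Several arrays stood apart in markers of other tissue. In the cerebral controls the mean of 14 thalamus genes was 0.35, -0.23, -0.99 and -0.55 in replicates 1 to 4, against 0.36 to 0.68 over the 12 injured cerebral arrays. Among spinal controls, the mean of 10 measured genes of Schwann cells and peripheral myelin was 1.71 and 1.08 in replicates 2 and 4 and -0.29 and -0.28 in replicates 1 and 3, and that of 12 skeletal muscle genes was 3.75, 3.15, 1.26 and 0.26 in replicates 1 to 4. Spinal day 3 replicate 1 had the lowest array weight, 0.225, and cerebral day 3 replicate 2 had the lowest mean of the members in its group, -0.84 against -0.37 to -0.26. The tissues carried their own identity genes, with 12 of 14 trunk Hox genes higher and 8 of 8 forebrain genes lower in spinal controls than in cerebral controls. Title numbers run over a separate range in each group, so a batch that follows them cannot be told apart from the group. Titles of the spinal day 7 arrays begin with P and those of all other arrays with G.

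Spinal controls held more of every member than cerebral controls, the comparison that shows the starting point of each tissue. All 9 members were higher, where 17.2% of all genes tested were, and their median difference was 2.25 against -0.02 over all genes. Ermn differed most, at log2 3.38 ± 0.18 (SE, n = 4 per group), a 10.4-fold difference. Mag, Mbp and Mobp followed at 6.94-fold, 6.03-fold and 5.89-fold, Mog at 4.77-fold, Cldn11 at 3.95-fold and Cnp at 3.28-fold. Mal, at 2.01-fold, and Opalin, at 1.91-fold, differed least. Opalin read 1.35, 0.63, 1.15 and 0.62 in the spinal controls against 0.42, 0.16, -0.33 and -0.22 in the cerebral controls, which do not overlap although the gap is 0.21. Adjusted p ran from 6.51e-18 for Mbp to 0.00409 for Opalin. With cerebral controls 1 and 2 only, Opalin stood at 0.65 and was not called (adjusted p = 0.129), and with spinal controls 2 and 4 only it stood at 0.62 (adjusted p = 0.126).

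**Figure D1:**
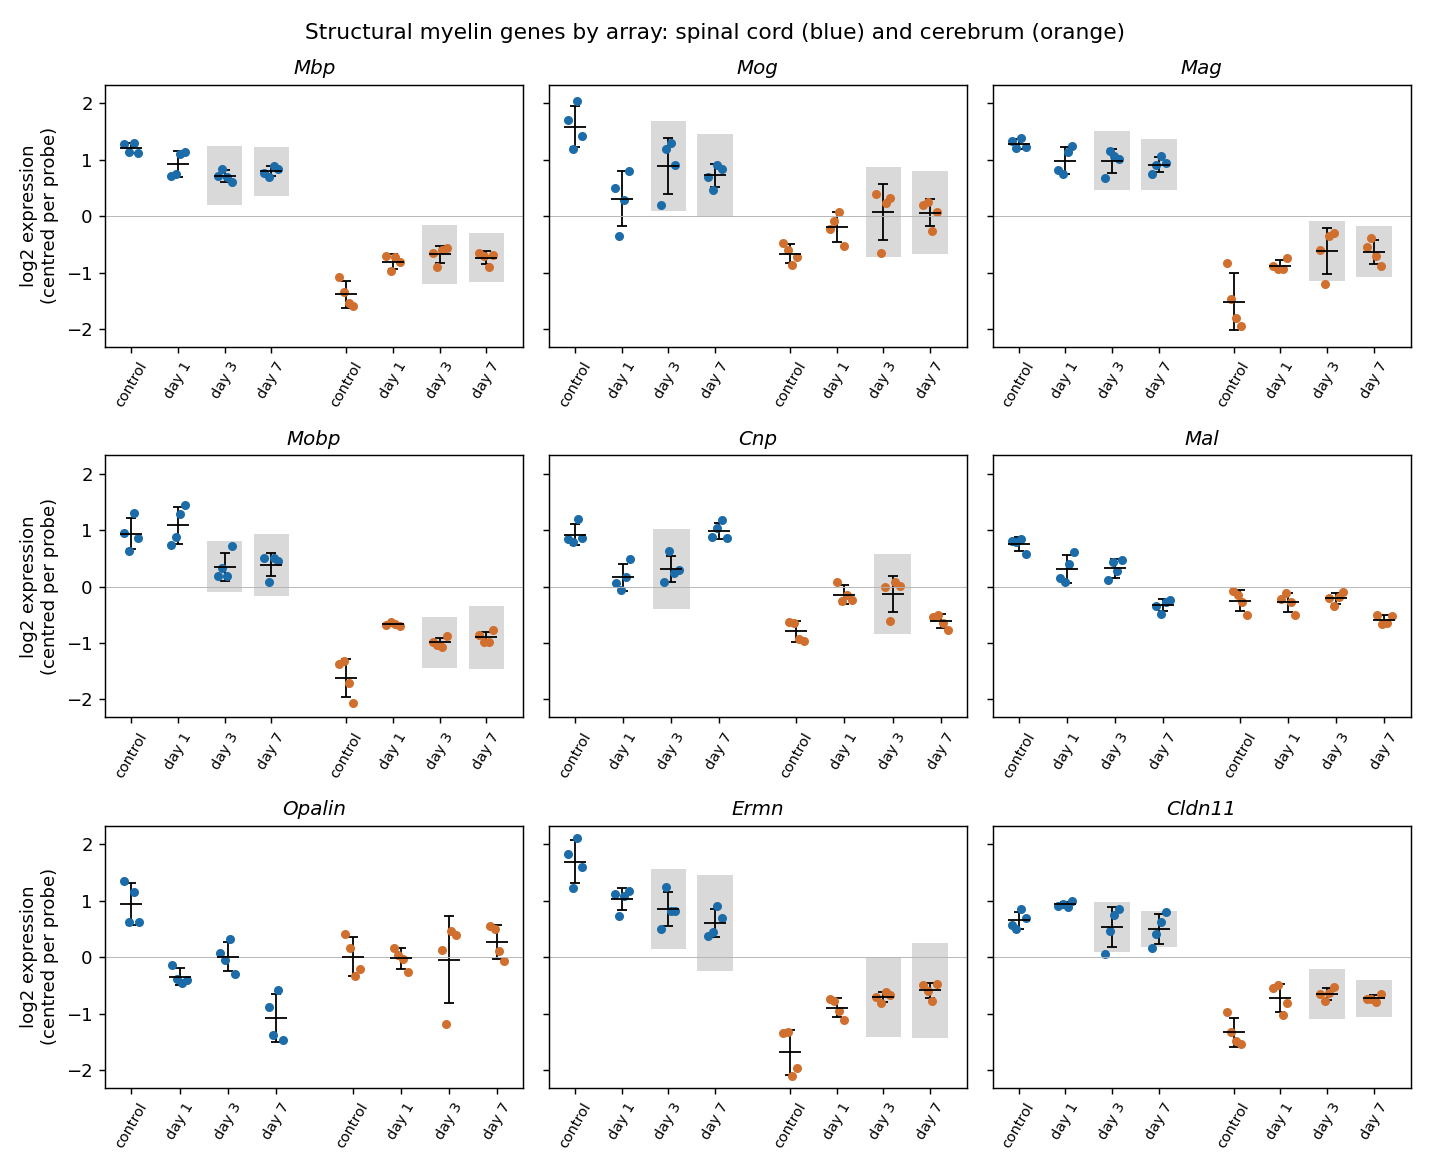
Log2 expression of each of the 9 genes, centred per probe, on every array, with spinal cord in blue and cerebrum in orange. Points are arrays, black marks are group means with SD (n = 4), and grey boxes show how far a day 3 or day 7 group can shift with its offset. Spinal controls lie above cerebral controls in every panel, and Opalin at spinal day 7 lies below all other spinal groups.

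One day after spinal photothrombosis, 5 of the 9 members had fallen in the cord and 0 had risen, where 16.1% of all genes tested were lower and 15.8% higher. Opalin fell to 41% of control (log2 -1.29 ± 0.25, adjusted p = 0.00025) and Mog to 41.1% (-1.28 ± 0.23, adjusted p = 0.000106). Cnp fell to 59.2% (-0.76 ± 0.14), Ermn to 63.4% (-0.66 ± 0.18) and Mal to 73.5% (-0.44 ± 0.11), with adjusted p of 0.000143, 0.00448 and 0.00346. The changes of the members ran from -1.29 to 0.28, and a difference between members was not tested. Mbp stood at -0.28 ± 0.11 (adjusted p = 0.0567), Mag at -0.30 ± 0.18, Mobp at 0.14 ± 0.16 and Cldn11 at 0.28 ± 0.15. None of these passed. Mbp lay near the threshold and was called lower in 6 of 18 alternatives, among them quantile normalisation on top (-0.43, adjusted p = 0.014). With spinal controls 2 and 4 only, the arrays with high peripheral myelin genes, 3 members were lower, since Ermn stood at -0.37 (adjusted p = 0.173) and Mal at -0.38 (0.0535), a choice made after seeing the data. Ermn was also lost with spinal controls 1 and 2 only (-0.50, adjusted p = 0.0871).

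Markers of other tissue and cells moved in the same comparison. Skeletal muscle genes were lower for 12 of 12 at spinal day 1 (median -1.74), with array means from -0.06 to 0.34 against 0.26 to 3.75 in spinal control. The cord's own trunk Hox genes were lower for 7 of 14, with array means from 0.91 to 1.18 against 1.10 to 1.67, and neuron genes were lower for 4 of 14 and higher for 1. Of the 10 peripheral myelin genes 1 was higher and 1 lower. Their part in the day 1 falls was not tested.

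Mog read 0.49, -0.36, 0.29 and 0.80 on the 4 arrays of spinal day 1, against 1.71, 1.19, 2.04 and 1.42 on those of spinal control. Every day 1 array lay below every control array. For Cldn11 the day 1 arrays, at 0.91, 0.94, 0.89 and 1.00, all lay above the control arrays, at 0.57, 0.49, 0.85 and 0.69, yet by too little to pass (adjusted p = 0.141). Mobp overlapped its controls, with 0.73 to 1.45 at day 1 and 0.63 to 1.31 in control.

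Opalin and Mal had their lowest group means in the cord at day 7, while Cnp lay near control there without further normalisation. The mean of Opalin was -0.35 at day 1, 0.01 at day 3 and -1.08 at day 7. Opalin fell to 24.6% of control at day 7 (log2 -2.02 ± 0.25, adjusted p = 1.84e-07) and Mal to 47.1% (-1.09 ± 0.11, adjusted p = 2.42e-08). These were the 2 of 9 members called lower at day 7, and also at day 3, with 0 called higher. Over all genes, 18.3% were lower and 16.2% higher at day 7, and 11.2% were lower and 11.2% higher at day 3. These shares are not at like bounds, since the members had a median bound of 0.58 at day 7 and 0.66 at day 3. For 80% and 77.9% of probes the bound was the allowance alone. At day 3 Opalin stood at -0.93 ± 0.25 (adjusted p = 0.0125) and Mal at -0.43 ± 0.11 (adjusted p = 0.0345). Both day 3 calls rested on few arrays. Without spinal control replicate 1 neither passed, at -0.79 (adjusted p = 0.0589) for Opalin and -0.42 (0.0764) for Mal, and with spinal controls 2 and 4 only Opalin stood at -0.62 (0.254). Mal also missed without spinal control replicate 2 or 3 or spinal day 3 replicate 1 or 3, at -0.42, -0.40, -0.36 and -0.41, whereas at day 7 both genes were called lower in each of 20 alternatives.

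The arrays show how the 3 time courses parted. Opalin read 1.35, 0.63, 1.15 and 0.62 in spinal control, -0.13, -0.39, -0.46 and -0.41 on the day 1 arrays, 0.08, -0.06, 0.32 and -0.30 on those of day 3, and -0.88, -1.38, -0.58 and -1.48 on those of day 7. Mal read 0.81, 0.80, 0.84 and 0.58 in control, 0.15, 0.08, 0.40 and 0.62 on the day 1 arrays, 0.11, 0.44, 0.27 and 0.47 on those of day 3, and -0.35, -0.48, -0.27 and -0.23 on those of day 7. In both genes all 4 day 7 arrays lay below every array of the other spinal groups. Cnp read 0.84, 0.79, 1.19 and 0.87 in control, 0.06, -0.06, 0.17 and 0.48 at day 1, and 0.87, 1.03, 1.18 and 0.86 at day 7, where it overlapped control again. Its change from control at day 7 was 0.06 ± 0.14 and did not pass, but stood at -0.57 (adjusted p = 0.0443) with quantile normalisation on top of the deposited values, which turned its direction.

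Spinal day 7 was also set against spinal day 1. Cnp was higher by 0.82 ± 0.14 (1.77-fold, adjusted p = 0.000194), while Mal was lower by log2 -0.64 ± 0.11 (adjusted p = 0.000515) and Opalin by -0.73 ± 0.25 (adjusted p = 0.0474). Over all genes 15% were higher and 16.1% lower in this comparison, in which the members had a median bound of 0.58. Against spinal day 3, Mal at -0.66 ± 0.11 (adjusted p = 0.021) and Opalin at -1.09 ± 0.25 (adjusted p = 0.0245) were lower at day 7, where 3.66% of all genes were. The Cnp rise was not called with quantile normalisation on top (0.41, adjusted p = 0.274). Opalin's fall from day 1 was lost in 9 of 16 alternatives, among them leaving out any of the 4 spinal day 1 arrays (-0.77 to -0.66), spinal day 7 replicate 2 (-0.63) or replicate 4 (-0.60). Quantile normalisation on top moved it most, to -0.28 (adjusted p = 0.798). Its fall from day 3 was lost in 5 of 16, without spinal day 3 replicate 1 or 3 or spinal day 7 replicate 2 or 4 and with quantile normalisation on top, from -1.07 to -0.66. Mal's fall from day 3 was lost in 4 of 16, without spinal day 3 replicate 2 or 4, without spinal day 7 replicate 2 and with quantile normalisation on top, from -0.62 to -0.47.

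Promoter sequence is shown for these 3 members, whose day 7 offset was fixed and whose levels in the cord parted. The stretches are the 250 bases before a start annotated for the gene, from RefSeq's GRCm38.p6 annotation, written 5′ to 3′ on the strand of the gene. They are chr11:100574689-100574938 on the plus strand for Cnp, chr2:127656696-127656945 on the minus strand for Mal and chr19:41077114-41077363 on the minus strand for Opalin. Capitals mark CTGGNAC, a core of the motif of the myelin regulator MYRF, and ACAANG, a core of the motif of SOX factors, both searched on both strands, with no overlap between them here.
Cnp: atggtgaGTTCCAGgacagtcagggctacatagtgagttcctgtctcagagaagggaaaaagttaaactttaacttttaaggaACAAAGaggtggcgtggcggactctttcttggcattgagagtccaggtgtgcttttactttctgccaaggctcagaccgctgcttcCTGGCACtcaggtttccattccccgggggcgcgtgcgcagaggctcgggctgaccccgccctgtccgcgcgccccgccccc
Mal: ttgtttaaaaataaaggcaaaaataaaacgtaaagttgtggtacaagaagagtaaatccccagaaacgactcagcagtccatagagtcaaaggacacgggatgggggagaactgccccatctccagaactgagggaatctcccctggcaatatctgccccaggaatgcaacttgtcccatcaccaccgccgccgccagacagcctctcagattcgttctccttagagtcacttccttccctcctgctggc
Opalin: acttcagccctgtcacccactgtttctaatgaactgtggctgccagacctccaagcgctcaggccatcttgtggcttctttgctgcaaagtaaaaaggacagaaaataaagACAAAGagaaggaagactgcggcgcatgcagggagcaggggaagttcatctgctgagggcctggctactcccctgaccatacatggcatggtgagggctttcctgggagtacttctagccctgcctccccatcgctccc
Cnp holds CTGGNAC at 2 places and ACAANG at 1, Opalin holds ACAANG at 1, and Mal holds neither. Of the members, 8 of 9 had a window in the table, Mag with 3 windows and Mbp with none. CTGGNAC stood in windows of 3 of these 8 members, which were Cnp, Mag and Mog. Counted by window it stood in 4 of 10 member windows, and in 16.1% of all 32851 windows. ACAANG stood in windows of 6 of the 8, or 8 of 10 member windows, and in 36.3% of all windows. TATAAA was in 0 of 10 (12.4% of all windows) and GGGCGG in 1 of 10, that of Cnp (32.7%). Windows of Mag overlap in part. A match of letters is a description of the window and not a binding site.

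For the other 6 members the size of the change in the cord at day 3 and day 7, and for some its direction, depended on the offset, as it did for Cnp at day 3, and none of these passed. Ermn stood at -1.08 ± 0.18 at day 7, and between -1.93 and -0.23 over all offsets that the centring allows. Its arrays read 0.37, 0.45, 0.91 and 0.70 at day 7 against 1.84, 1.22, 2.11 and 1.59 in control, with the offset at the middle of its range. Mog at day 7 lay between -1.60 and -0.13, and Mobp between -1.11 and 0.00. The range of Mbp reached from -0.84 to 0.03, that of Mag from -0.82 to 0.08 and that of Cldn11 from -0.48 to 0.17. At day 3 the range of Ermn reached from -1.55 to -0.13 and that of Mobp from -1.04 to -0.14, and those of Mbp, Mog, Mag, Cnp and Cldn11 crossed 0. All of these ranges leave out the allowance and the SE. With the allowance added, those of Ermn at day 3 and of Mog at day 7 crossed 0 too. These are limits of the deposited centring, and a missed threshold here does not show that the gene kept its level.

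**Figure D2:**
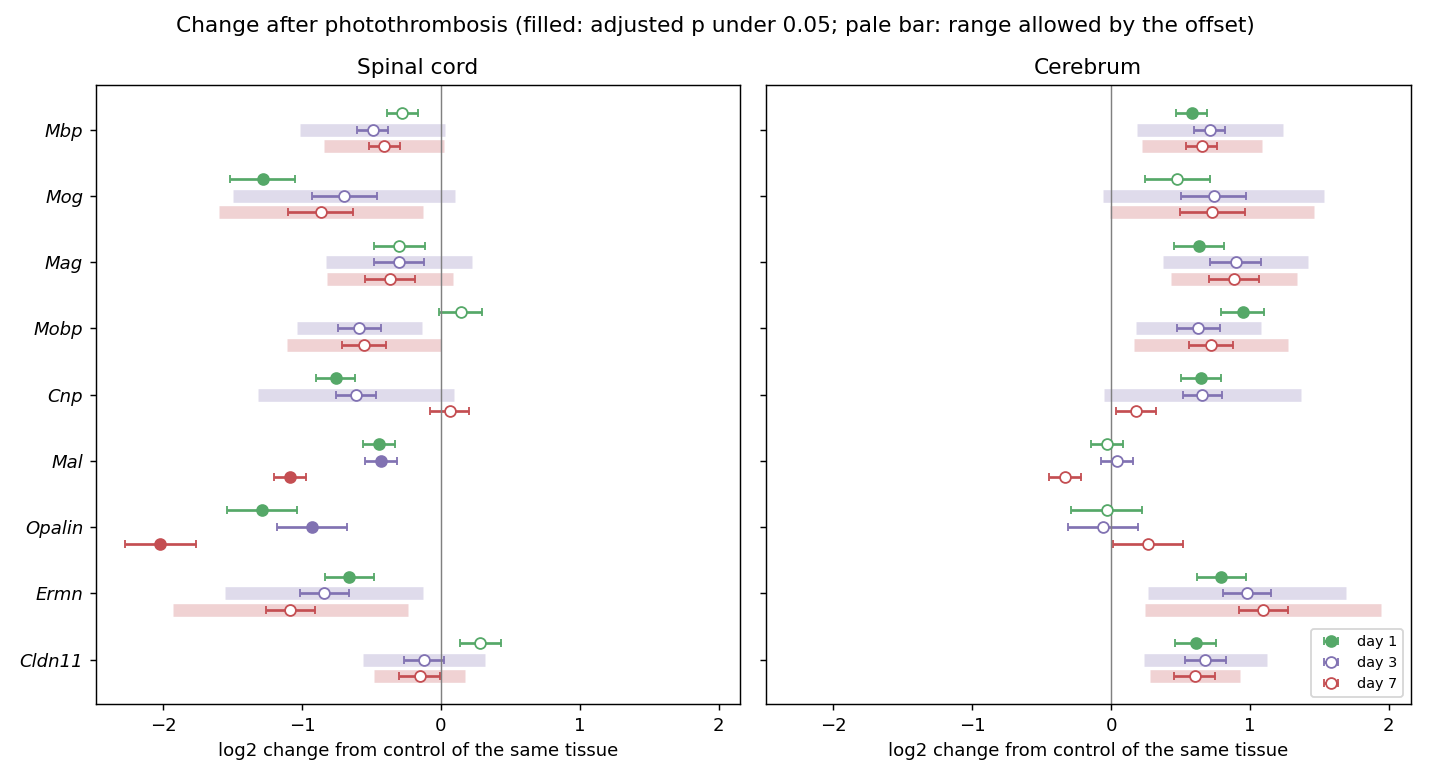
Log2 change from the control of the same tissue for each gene at day 1 (green), day 3 (purple) and day 7 (red), with spinal cord on the left and cerebrum on the right. Points are group differences with SE (n = 4 per group), filled where adjusted p was under 0.05, and pale bars give the range allowed by the offset. Opalin and Mal move furthest left of 0 in the cord among the genes with a fixed offset, and 6 genes have a filled day 1 point right of 0 in the cerebrum.

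Injured cerebrum moved the other way at day 1. Of the 9 members 6 were higher than in cerebral control and 0 lower, where 8.91% of all genes tested were higher and 8.22% lower. Mobp rose 1.93-fold (log2 0.95 ± 0.16, adjusted p = 8.16e-05), Ermn 1.73-fold (0.79 ± 0.18), Cnp 1.57-fold (0.65 ± 0.14), Mag 1.55-fold (0.63 ± 0.18), Cldn11 1.53-fold (0.61 ± 0.15) and Mbp to 149.7% of control (0.58 ± 0.11). Mog stood at 0.48 ± 0.23 (adjusted p = 0.17). Mal, at -0.03 ± 0.11, and Opalin, at -0.03 ± 0.25, were at their control level within the SE, so the pair with the smallest difference between control tissues was also the pair nearest 0 here. On the arrays, Mobp read -0.69, -0.63, -0.67 and -0.69 at cerebral day 1 against -1.37, -1.33, -1.71 and -2.07 in cerebral control, with no overlap. Mag read -0.89, -0.95, -0.95 and -0.74 at day 1 against -0.83, -1.46, -1.81 and -1.95 in control, where replicate 1 lay among the injured arrays.

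The cerebral controls themselves were split in these genes. The mean of the 9 members was -0.71 and -0.89 in control replicates 1 and 2 and -1.23 and -1.28 in replicates 3 and 4, and the thalamus genes above followed the same split. Over the 4 arrays of cerebral day 1 the mean of the members ran from -0.64 to -0.42, above every control array, and that of the thalamus genes from 0.50 to 0.67. Of the 14 thalamus genes, 9 were higher at day 1, by a median of 0.95 over the list. Forebrain identity genes were lower for 4 of 8 and higher for 0 at cerebral day 1, with array means from 1.25 to 1.36 against 1.80 to 1.90 in cerebral control. Genes of microglia and phagocytes were higher for 7 of 12 (median 1.57), with array means from 0.83 to 1.30 against -0.37 to -0.30, and astrocyte genes for 8 of 9 (median 0.71). Hypothalamus and pituitary genes were lower for 6 of 9, with array means from -0.19 to 0.26 at day 1 against 0.47 to 1.41 in control. The part of any of these in the rise of the members was not tested. With cerebral controls 1 and 2 only, 2 members were called higher, Mbp at 0.40 (adjusted p = 0.0467) and Mobp at 0.68 (0.0127). With quantile normalisation on top 1 was, Cnp at 0.62 (0.00623), while Mbp stood at 0.01 and Mag at 0.01. Mag alone was lost when cerebral control replicate 3 or 4 was left out (0.53 and 0.49, adjusted p = 0.064 and 0.0796).

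At cerebral day 3 and day 7 no member passed against its bound, where 7.61% and 8.06% of all genes were called in either direction. These shares are not at like bounds. The median bound of the members was 0.66 and 0.58, whereas the bound was the allowance alone for 77.9% and 80% of probes. The median change of the members was 0.68 and 0.65. At an unadjusted p under 0.05 from the same limma test the count was 0 of 9 at each day, and with the offset taken as exact 7 members were called at each day, 7 higher at day 3, and 6 higher and 1 lower at day 7, the lower one being Mal (-0.33, adjusted p = 0.0346). At day 7 the change of Mbp lay between 0.22 and 1.09 over the allowed offsets, that of Mag between 0.43 and 1.34, that of Mobp between 0.17 and 1.27, that of Ermn between 0.25 and 1.95 and that of Cldn11 between 0.28 and 0.93. These ranges hold the half-width of the offset alone, without the allowance or the SE, and none of the 5 changes passed. At day 3 the range of Mag ran from 0.37 to 1.42. Of the members with a fixed offset at day 7, Opalin stood at 0.26 ± 0.25, Cnp at 0.18 ± 0.14 and Mal at -0.33 ± 0.11. Mal read -0.50, -0.67, -0.64 and -0.52 at cerebral day 7 and -0.08, -0.15, -0.26 and -0.51 in control, which overlap. Cerebral day 7 did not differ from day 1 or from day 3 by the test in any member, with 0 of 9 called in each, where 4% and 0.39% of all genes were. The median bound of the members there was 0.58 and 1.24. At an unadjusted p under 0.05 1 member passed against day 1 and 0 against day 3.

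The difference between the tissues in their change from control needs no offset at any day. It still rests on the controls whose thalamus, peripheral myelin and muscle genes varied as given above. Their part in it was not tested, and a batch that follows the titles cannot be told apart from injury. The change from control was lower in cord than in cerebrum for 7 of 9 members at day 1, 7 of 9 at day 3 and 8 of 9 at day 7, and higher for 0, where 6.58%, 5.19% and 14.6% of all genes were lower and 4.7%, 4.08% and 13% higher. At day 7 Opalin differed most, at -2.29 ± 0.36 (adjusted p = 1.36e-05), followed by Ermn at -2.18 ± 0.25 (1.25e-07) and Mog at -1.59 ± 0.33 (0.000453). Mobp stood at -1.27, Mag at -1.25, Mbp at -1.06, Cldn11 at -0.76 and Mal at -0.75, all past the test. Cnp was the member not called, at -0.12 ± 0.20 (adjusted p = 0.73). At day 1 Mal, at -0.42 ± 0.16, and Cldn11, at -0.33 ± 0.21, were not called, and at day 3 Mal, at -0.47 ± 0.16, and Opalin, at -0.87 ± 0.36, were not. Opalin passed at day 3 without cerebral day 3 replicate 2 (-1.25, adjusted p = 0.00478), the array on which it read -1.18 while the other 3 read 0.13 to 0.47, and with spinal controls 1 and 3 only (-1.19, adjusted p = 0.0417). Mal passed in 10 of 28 alternatives at day 3 (-0.68 to -0.48, adjusted p from 0.025 to 0.0468) and in 4 of 28 at day 1 (-0.55 to -0.48, adjusted p from 0.0294 to 0.0476). The arrays whose omission did this were cerebral control replicate 1, spinal control replicate 4, cerebral day 3 replicate 2 and spinal day 3 replicates 2 and 4 for day 3, and replicate 4 of cerebral and of spinal day 1 for day 1. The day 1 count was 4 with cerebral controls 1 and 2 only, 4 with spinal controls 2 and 4 only and 4 with quantile normalisation on top, whereas the day 7 calls of Mbp, Mog, Mag, Mobp, Mal, Opalin and Ermn held in all 28 alternatives and that of Cldn11 in 27, being lost with cerebral controls 1 and 2 only (-0.58, adjusted p = 0.0703).

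Seen as levels on the same arrays, with the same limits, the lead of cord over cerebrum shrank in the median of the members. The median of the 9 differences between spinal and cerebral group means was 2.25 in control, 1.66 at day 1, 1.18 at day 3 and 1.23 at day 7. Ermn went the furthest in a single direction, with cord 10.4-fold above cerebrum in control, 3.80-fold at day 1, 2.94-fold at day 3 and 2.29-fold at day 7. For Opalin the order of the tissues turned, with a difference of 0.93 in control, -0.32 at day 1, 0.06 at day 3 and -1.35 at day 7, when its 4 spinal arrays, at -0.88, -1.38, -0.58 and -1.48, lay below its 4 cerebral arrays, at 0.55, 0.50, 0.11 and -0.07. Cnp narrowed and widened again, at 1.71 in control, 0.31 at day 1, 0.44 at day 3 and 1.60 at day 7. Mbp kept cord above cerebrum at each stage, at 2.59, 1.73, 1.39 and 1.53 in the same order of stages.

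**Figure D3:**
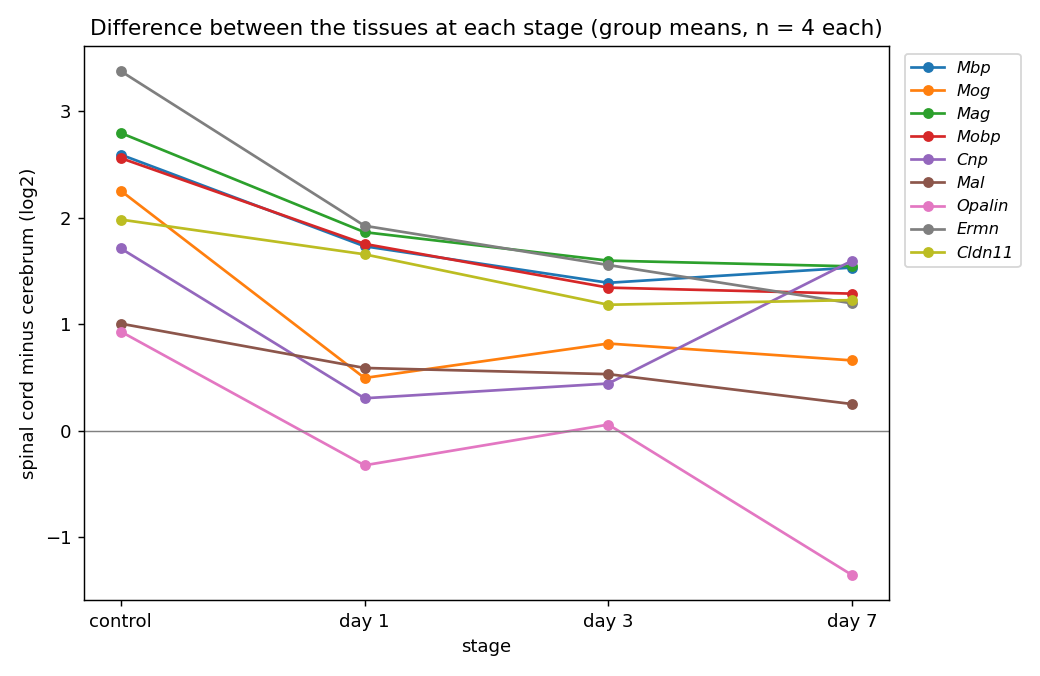
Spinal cord minus cerebrum in log2 for each of the 9 genes at control, day 1, day 3 and day 7, as differences of group means (n = 4 each), which do not depend on the offset. Most lines fall after control, Opalin passes below 0 and reaches -1.35 at day 7, and Cnp returns to 1.60.

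Other genes of mature oligodendrocytes were read from a list of 25, of which 21 were measured. In cord at day 1, 9 of 21 were lower and 2 higher, with a median change of -0.34 against 0.02 over all genes. In this comparison 16.1% of all genes were lower and 15.8% higher. Aspa, which splits N-acetylaspartate, stood at -2.09, Ugt8a, which makes galactosylceramide, at -1.80, and Fa2h, which hydroxylates myelin lipids, at -1.55, all lower. Trf, which encodes transferrin, at 1.05, and Myrf, the transcription factor that drives myelin genes, at 0.51, were the 2 that rose. At spinal day 7, 3 of 21 were lower and 1 higher (median -0.55, against -0.10 over all genes), where 18.3% of all genes were lower and 16.2% higher. These shares are not at like bounds, with a median bound of 0.39 in the list and the allowance alone for 80% of probes. In the cerebrum at day 1, 9 of 21 were higher and 0 lower (median 0.54), where 8.91% of all genes were higher and 8.22% lower. The largest rises were those of Klk6, a protease of oligodendrocytes, at 2.29, Trf at 1.33 and Bcas1 at 0.97. The spinal minus cerebral change at day 7 was lower for 13 of 21 and higher for 0 (median -0.76). Over all genes 14.6% were lower and 13% higher in it.

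Markers of oligodendrocyte precursors and differentiating cells took another course in the cord. Of 14 measured, 5 were lower and 0 higher at day 1, where 16.1% of all genes were lower and 15.8% higher. Among the 5 were Gpr17, a receptor of differentiating precursors, at -1.63, Enpp6, an early marker of new oligodendrocytes, at -1.49, and Olig1 at -1.01. At day 7, 6 were higher and 2 lower than control (median 0.44), where 16.2% of all genes were higher and 18.3% lower. Changes from control in the list ran from -0.64 to 2.14. Against day 1, 10 were higher and 0 lower (median 1.24, against -0.13 over all genes). Over all genes 15% were higher and 16.1% lower there. The 3 with the largest change from control at day 7 are named here. Vcan, a proteoglycan, stood at 2.14 above control, Cspg4, the NG2 proteoglycan, at 2.05 and Bmp4, a growth factor that holds back differentiation, at 1.68. Vcan and Cspg4 are also expressed outside this lineage. Spinal day 3 replicate 1 lay apart in this list, at -0.65 against 0.29 to 0.51 on the other 3 day 3 arrays.

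The falls in the cord came with changes in markers of other cells. At spinal day 7, 18.3% of all genes were lower than control and 16.2% higher. Neuron genes were lower for 13 of 14 at spinal day 7 and higher for 0, with array means from -1.82 to -1.19 against -0.11 to 0.03 in spinal control. Genes of microglia and phagocytes were higher for 9 of 12, with array means from 3.23 to 3.73 against -0.16 to -0.08. The peripheral myelin list ran from -0.15 to 0.64 at spinal day 7 and from -0.29 to 1.71 in spinal control, with 1 of its 10 genes higher and 0 lower. Of the 12 muscle genes, 9 were lower at spinal day 7, with array means from 0.03 to 0.61 against 0.26 to 3.75 in spinal control. Trunk Hox genes were lower for 9 of 14, with array means from 0.55 to 0.72 against 1.10 to 1.67. Their part in the members' results was not tested. In RNA from whole tissue, fewer oligodendrocytes and less RNA per oligodendrocyte cannot be told apart.

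**Figure D4:**
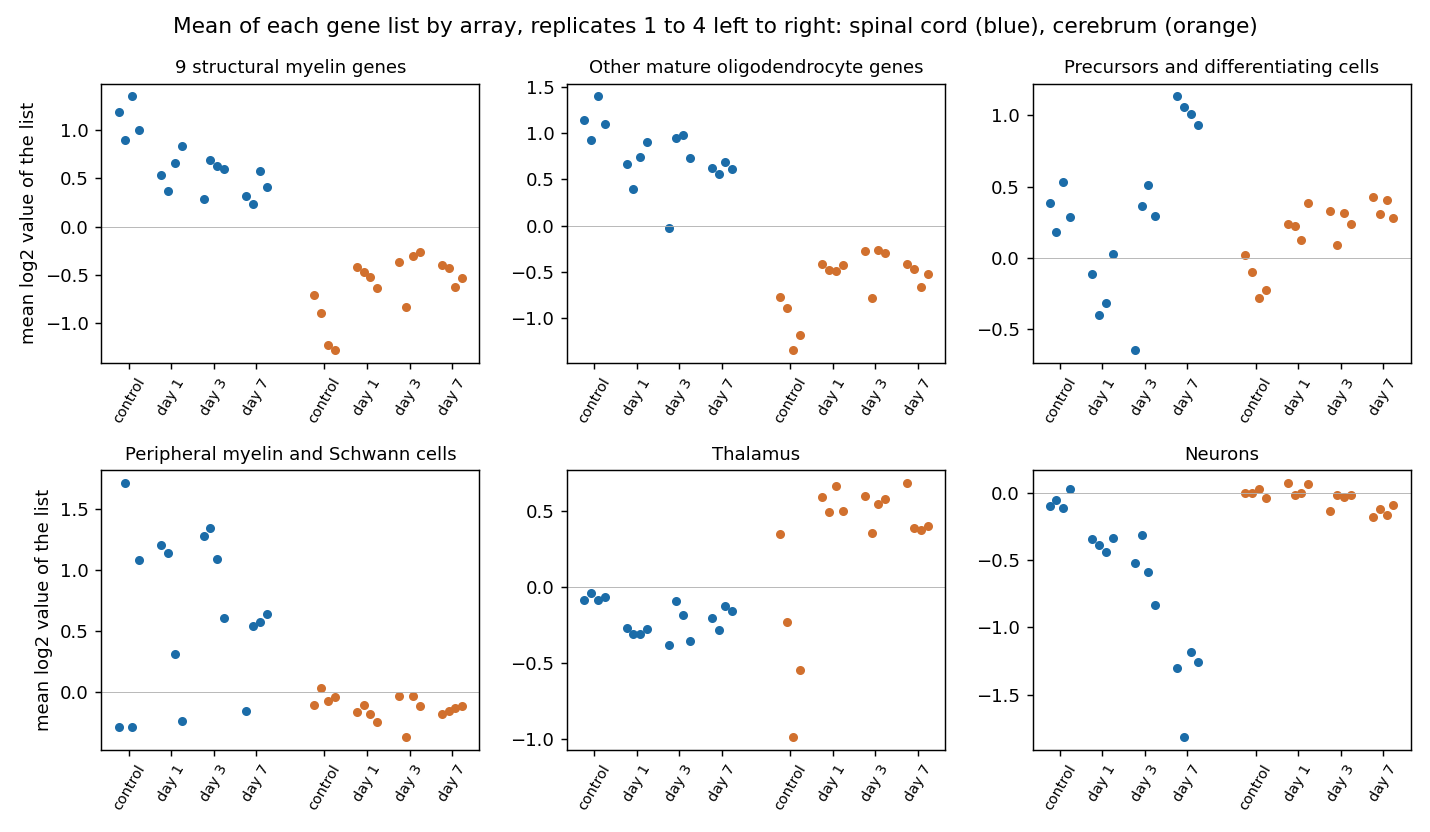
Mean log2 value of 6 gene lists on every array, replicates 1 to 4 from left to right in each group, with spinal cord in blue and cerebrum in orange. The precursor list is highest at spinal day 7, from 0.93 to 1.13, and in the cerebral controls the members and the thalamus list are both lower in replicates 3 and 4 than in replicates 1 and 2.

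Within groups the members varied together. After removal of the 8 group means, the correlation of each member with the mean of the other 8 over 32 arrays ran from 0.53 for Cldn11 and 0.55 for Opalin to 0.80 for Mag and 0.81 for Cnp, as a description of arrays that share the same tissue pieces. The genes outside the set most like its mean in these residuals were Plekhh1 (r = 0.86), Cntn2 (0.84), Gpr37 (0.83), Ppp1r14a (0.82) and Plch1 (0.81). Over the 16 arrays of control and day 1, where the difference between tissues enters, they were Plekhb1 (r = 0.99), Slc6a9, Slc4a2, Gstm7 and Gltp (0.98 to 0.99). No gene is common to both groups of 5. In the genome the members are spread over 8 chromosomes, with Mal and Ermn both on chromosome 2 of GRCm38.p6, Mal from 127633226 to 127656695 and Ermn from 58045115 to 58052864. Opalin (Entrez identifier 226115) lies on chromosome 19 from 41061959 to 41077113, Cnp (12799) on chromosome 11 from 100574909 to 100591875 and Mbp (17196) on chromosome 18 from 82475091 to 82585637.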

How the data were processed

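RNA of 32 samples was labelled with biotin and hybridised to 1-colour arrays, from 10 ng of total RNA each, per the labels' protocols. The deposited table holds log2 values of 22206 probes, and the authors had centred each probe, as the values show; the earlier background correction, summarisation and normalisation are not stated in the labels or headers. Of the probes, 19572 have 1 gene symbol and 2634 none, and probes of a gene were averaged to give 19505 genes. Centred values carry no brightness, so no filter on dim probes could be set and depth is unknown. Each probe had median 0 over the 16 arrays of control and day 1. For day 3 and day 7 the offset was solved so that the 8 arrays of that day and the 8 controls together had median 0. In a check on probe pairs this held with the controls in 86.8% and 86.4% of pairs at day 3 and day 7. With the day 1 arrays in their place it held in 69.1% and 70.1%, and with the arrays of the other day in 68.5% and 69.7%. The allowance was set at the 0.999 quantile of the excess in the check with the controls. The offset was a single value for 77.9% of probes at day 3 and 80% at day 7.

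One limma fit (limma 3.58.1, R 4.3.3) with 8 group means had 24 residual degrees of freedom. Comparisons across centrings were tested against the half-width of the offset plus the allowance, others against 0, with Benjamini-Hochberg adjustment over all genes. The code was run on simulated data centred by the same rule, which cannot show that the rebuilt offset is right for these data. Figures used matplotlib 3.10.9 under Python 3.11.15. The members, the gene lists and the rule for named genes were chosen with earlier results of these data known. The rule named all 9 members, up to 3 genes of a list with the largest change past the test, other listed genes as values, and the 5 genes most like the members' mean by each of 2 measures. Alternatives were quantile normalisation on top, array medians set to 0, array weights, another spread model, pairs of controls, each array left out, and other treatments of the offset. Sequences are from RefSeq.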

Additional observations from a re-analysis of the deposited data

Results flagged for a closer look

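On cerebral day 3 replicate 2 a pair of members lay far from the rest of their group, Mog at -0.65 against 0.23 to 0.39 on the other 3 arrays and Cnp at -0.61 against -0.01 to 0.08. Mobp on spinal day 7 replicate 2 read 0.0817 against 0.45 to 0.51, and Mal on spinal control replicate 4 read 0.58 against 0.80 to 0.84. These are 4 of 72 groups of 4 arrays examined, and chance alone marks about 1 in 20.

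The change in the cord differed from the change in the cerebrum in 22 of 27 tests of the difference itself in limma, with the cord lower each time. At day 1, day 3 and day 7 the change was lower in the cord for 6.58%, 5.19% and 14.6% of all genes. It was higher for 4.7%, 4.08% and 13%. The 27 tests share the same control arrays and the members varied together, so they are not independent. At day 1 the members differed as follows, with negative values for a lower change in the cord: Mbp by -0.86 (adjusted p = 0.000612), Mog by -1.76 (adjusted p = 0.000794), Mag by -0.93 (adjusted p = 0.017), Mobp by -0.81 (adjusted p = 0.017), Cnp by -1.41 (adjusted p = 3.88e-05), Opalin by -1.25 (adjusted p = 0.021), Ermn by -1.45 (adjusted p = 0.000268). At day 3 the differences were Mbp by -1.20 (adjusted p = 2.81e-05), Mog by -1.43 (adjusted p = 0.00536), Mag by -1.20 (adjusted p = 0.00299), Mobp by -1.22 (adjusted p = 0.000749), Cnp by -1.27 (adjusted p = 0.000196), Ermn by -1.82 (adjusted p = 3.4e-05), Cldn11 by -0.80 (adjusted p = 0.0125). At day 7 they were Mbp by -1.06 (adjusted p = 6.68e-06), Mog by -1.59 (adjusted p = 0.000453), Mag by -1.25 (adjusted p = 0.000379), Mobp by -1.27 (adjusted p = 5.48e-05), Mal by -0.75 (adjusted p = 0.000611), Opalin by -2.29 (adjusted p = 1.36e-05), Ermn by -2.18 (adjusted p = 1.25e-07), Cldn11 by -0.76 (adjusted p = 0.00613). The other 5 did not pass.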

How the results depend on the processing

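Counts of members called are given here where they moved by over 1.5 times, the main count being in the report. Counts over all genes moved too under some alternatives, as given below, so a moved count is not a result about the members alone. With quantile normalisation on top, 1 member was called at cerebral day 1, 5 at spinal day 7, 4 for the spinal minus cerebral change at day 1, 1 for spinal day 7 against day 1 and 0 for spinal day 7 against day 3, and Cnp at spinal day 7 turned to -0.57. At spinal day 3, 1 was called with array medians set to 0, 1 with array weights, 1 with spinal controls 1 and 2 only, 0 with 3 and 4 only and 0 with 2 and 4 only. With cerebral controls 1 and 2 only, 2 were called at cerebral day 1 and 4 for the difference of changes at day 1, and with 3 and 4 only, 1 each at cerebral day 3 and day 7. With spinal controls 2 and 4 only, 3 were called at spinal day 1 and 4 for the difference of changes at day 1. With the values as deposited, 6 and 5 were called at cerebral day 3 and day 7, 7 and 6 at spinal day 3 and day 7, and 1 for cerebral day 7 against day 1. With the offset taken as exact these counts were 7, 7 (Mal being lower), 7, 6 and 1, with 6 for spinal day 7 against day 1 and 2 for cerebral day 7 against day 3. With each array left out in turn, counts ran from 5 to 6 at cerebral day 1, 0 to 0 at cerebral day 3, 0 to 1 at cerebral day 7, 5 to 6 at spinal day 1, 0 to 2 at spinal day 3, 2 to 2 at spinal day 7, 9 to 9 between controls, 6 to 8, 7 to 9 and 8 to 8 for the difference of changes at day 1, 3 and 7, 2 to 3 for spinal day 7 against day 1, 0 to 2 against day 3, and 0 to 0 for both cerebral comparisons with day 7. The 1 at cerebral day 7 was Mag without cerebral control replicate 1. The cause of these moves was not tested, except that the last 2 treatments of the offset ignore its range. Of the values of single members under all alternatives, 2353 kept their side of the threshold, 81 newly passed, 67 no longer passed and 1 reversed. Over all genes, 35 of 278 counts moved by over 1.5 times, the extremes being 71 against 1554 for spinal day 7 against day 3 with quantile normalisation on top, and 2047 against 76 for cerebral day 7 against day 3 with the offset taken as exact. Setting array medians to 0 moved the median of all genes by 0.10 for spinal day 7 against day 1. No paired analysis was possible because the labels give the groups no shared replicate numbers.

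The number of arrays, 4 a group, and the centring limit the precision. At day 3 and day 7 most members have a range of changes and not a single value, and a missed threshold there does not show that a gene kept its level.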
